A study of Mus musculus with 4 samples.

Results

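The Hippo effectors and YAP targets described here are 10 genes that were chosen by name out of 21828 genes with an FPKM in all 4 libraries. They encode the coactivators Yap and Taz (Yap1 and Wwtr1), the DNA-binding partners Tead1, Tead2 and Tead3, the kinases Lats1 and Lats2, the junctional protein Amotl2, and the secreted proteins Cyr61 and Ctgf. The mice carried an EGFP transgene, in a destabilized form, under a fragment of the Hes1 promoter (pHes1), and the labels give the strain as FVB/N and the animals as untreated. Retinas were dissociated with trypsin at P1 or at P4 (postnatal day 1 or 4), and a cell sorter separated EGFP-positive cells (pHes1_EPCs) from EGFP-negative cells (pHes1_ENCs) of these transgenic retinas. RNA of each fraction at each age was sequenced as 1 library, so the 4 groups are the pHes1_EPC and pHes1_ENC fractions of P1 and those of P4, and no group has a replicate. The number of animals behind a library is not given in the sources used here. The sort follows the activity of the promoter fragment and not a cell type marker, so that cycling progenitors and differentiating Müller glia can both be positive. The study states, citing earlier work, that nearly all Müller glia express EGFP after birth. It also reports, from its own immunostaining, that Müller glia of the adult retina still expressed EGFP. Its discussion also says, from the same earlier work, that EGFP was seen in central and not in peripheral retina.

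In the Hippo pathway the kinases Lats1 and Lats2 phosphorylate Yap and Taz and thereby keep them in the cytoplasm or send them to degradation. Unphosphorylated Yap and Taz enter the nucleus, where they have no DNA-binding domain of their own and act through the Tead proteins. Cyr61, Ctgf, Amotl2 and Lats2 are widely used as readouts of this complex, and Lats2 and Amotl2 also restrain Yap, as negative feedback. In the mature mouse retina Yap and Taz are known as proteins of Müller glia, whereas photoreceptors and other neurons largely lack them.

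At both ages Yap1, Wwtr1 and Cyr61 exceeded their level in pHes1_ENCs more than 2-fold in pHes1_EPCs. At P4 Tead1, Tead2 and Ctgf were also more than 2-fold higher, and Tead3 was more than 2-fold lower. Lats1 and Amotl2 were lower in pHes1_EPCs by less than 2-fold at both ages, and Lats2 was level at P1 and 1.32 times as high at P4. The difference is taken on log2(FPKM + 1), as the positive minus the negative fraction, and a gene counts as higher above 1 and as lower below -1. FPKM is already divided by transcript length and library size, so that levels of different genes can be set side by side.

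At P1 3 of the 10 genes were higher and 0 were lower, and over all 21828 genes 6.1% were higher and 6.79% lower. At P4 6 of the 10 were higher and 1 was lower, against 9.85% and 5.42% of all genes. The 10 genes were chosen with earlier results of these data known, so these counts are not independent of that choice. The P4 split of all genes depended on the scaling, with 7.78% higher and 6.86% lower after median-of-ratios scaling, and 7.06% and 7.11% after quantile normalization. Of the 10 genes, 5 were then higher and 1 lower after median-of-ratios scaling, and 4 and 1 after quantile normalization. Rescaling to the same total gave 9.23% and 9.94% of all genes, and 5 higher and 2 lower of the 10. That setting raised the FPKM values while the 1 added before the log2 (the pseudocount) stayed the same. It thus mixes a change of scale with a lighter pseudocount, and at P1 it gave 7.24% higher and 9.8% lower of all genes. Of the 10 genes 4 were higher and 0 lower at P1 in that setting. Many of these genes are silent, and the shares among genes that reached an FPKM of 1 in the higher of the compared libraries were 10.6% higher and 11.8% lower at P1, and 17.4% higher and 9.56% lower at P4. The median difference of the 10 genes was 0.70 at P1 and 1.12 at P4. Over all genes that reached an FPKM of 1 anywhere it was 0.02 at P1 and 0.15 at P4. Each group is a single library, so these values describe 4 libraries and no test between groups was possible. Ranges of ratios are built from the 95% intervals that Cufflinks gave for each FPKM, and they cover counting error only. In RNA from sorted pools, fewer cells that express a gene and less RNA of it per cell cannot be told apart.

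**Figure D1:**
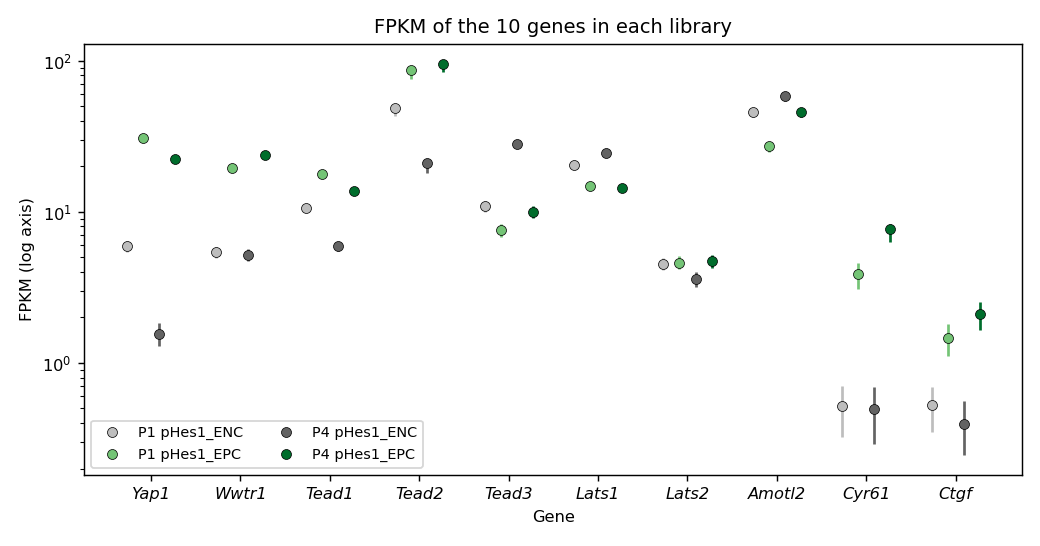
FPKM of each gene (log axis) in the 4 libraries, 1 point per library, with vertical lines for the Cufflinks 95% interval. Light and dark green points (pHes1_EPC at P1 and P4) lie above the grey points (pHes1_ENC) for Yap1, Wwtr1, Tead1, Tead2, Cyr61 and Ctgf, and below them for Tead3, Lats1 and Amotl2 at the same age.

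The sort was checked by Hes1, whose FPKM was 6.31 times as high in pHes1_EPCs as in pHes1_ENCs at P1 and 26.1 times at P4. All 12 genes of a Müller glia list were above 0 in this comparison at both ages. Of these, 10 and 11 were more than 2-fold higher, with medians of 1.92 and 3.77. The list includes Hes1 itself, which is thus counted again there. The water channel gene Aqp4, a marker of mature Müller glia, had an FPKM of at most 0.395 in any library and was singled out after its values were seen. All 10 genes of a list for cycling cells, among them Ccnd1 and Pcna, were also more than 2-fold higher at both ages, with medians of 1.99 and 3.36. The summed FPKM of that list was 2719 in pHes1_EPCs at P1 and 1067 at P4, whereas that of the Müller glia list was 1959 and 3326. A few genes weigh heavily in the latter sums, such as Apoe with an FPKM of 146 and 838 in these libraries. The median log2 difference from P1 to P4 in pHes1_EPCs was 0.29 for the Müller glia list, with 10 genes above 0 and 2 below. For the cycling list it was -1.37. Of 8 rod genes, among them Nrl and Nr2e3, which specify rod fate, 7 at P1 and 8 at P4 were more than 2-fold lower in pHes1_EPCs. The FPKM sums over all gene lines were 342618 to 450080, highest in P4 pHes1_EPC.

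Tead proteins recognize a short core of 6 bases, GGAATG, which reads CATTCC on the other strand. Promoter sequences are shown for 4 genes that hold this core, so the printed ones do not represent all 10. RefSeq (GRCm38.p6) start sites were available for 8 of the 10 genes, the exceptions being Tead1 and Ctgf, and gave 12 windows from 250 bases before to 50 bases after a start. The core was found on either strand in 8 of these windows, for 6 genes (Yap1, Wwtr1, Tead3, Cyr61, Lats2 and Amotl2), and in 14.7% of all 32851 windows of this kind. No match was found in the windows of Tead2 and Lats1. Windows of 1 gene can overlap, so the 12 are not separate observations. The AP-1 motif TGANTCA was found in 0 of the 12 windows and in 7.81% of all. Below, the core is in capitals, all printed bases lie before the start, and each sequence was placed in NCBI37/mm9 by its only exact match on that strand of its chromosome.
The whole stretch before the start of Cyr61 (chr3:145312950-145313199, minus strand) holds the core at -103 to -98 from the start. For Amotl2 (chr9:102620022-102620121, plus strand), Yap1 (chr9:8004685-8004784, minus strand) and Wwtr1 (chr3:57379916-57380015, minus strand), the 100 bases around the core are given.
Cyr61: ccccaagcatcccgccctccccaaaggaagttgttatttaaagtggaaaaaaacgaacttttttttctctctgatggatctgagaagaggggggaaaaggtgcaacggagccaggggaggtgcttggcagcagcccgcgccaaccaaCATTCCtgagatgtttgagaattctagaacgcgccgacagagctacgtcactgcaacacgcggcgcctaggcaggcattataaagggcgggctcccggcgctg
Amotl2: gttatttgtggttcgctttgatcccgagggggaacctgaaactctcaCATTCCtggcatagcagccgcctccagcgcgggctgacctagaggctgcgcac
Yap1: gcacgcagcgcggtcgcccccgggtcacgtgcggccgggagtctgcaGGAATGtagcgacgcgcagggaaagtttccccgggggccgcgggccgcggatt
Wwtr1: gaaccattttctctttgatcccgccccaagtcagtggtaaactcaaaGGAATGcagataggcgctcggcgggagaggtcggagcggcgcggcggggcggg
In Cyr61 and Amotl2 the core lies on the strand opposite to the gene, at -65 to -60 from the start in Amotl2. In Yap1 and Wwtr1 it lies on the strand of the gene, at -141 to -136 and -136 to -131, or at -170 to -165 from the other start of Wwtr1. A match of letters is a description and not a binding site.

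Yap1 encodes Yap, the coactivator after which the target genes are named. The gene occupies chromosome 9 of NCBI37/mm9 on the minus strand, from 7932001 to 8004596, with 9 exons in the longest coding transcript. Its FPKM was 30.6 in P1 pHes1_EPC against 5.93 in P1 pHes1_ENC, and 22.3 in P4 pHes1_EPC against 1.56 in P4 pHes1_ENC. Both pHes1_EPC libraries were thus far above both pHes1_ENC libraries. The positive over the negative fraction gave a ratio of 5.16 (range 4.56 to 5.93) at P1, compared with 14.2 (11.6 to 18.01) at P4, or 2.19 and 3.18 on the log2 scale. On deposited FPKM with a pseudocount of 1 these were the largest of the 10 genes at each age. Those of Cyr61 were larger at both ages without a pseudocount, and at P1 with a pseudocount of 0.1. At P1 they were also larger after rescaling to the same total, which lightens the pseudocount as well. The level was lower at P4 than at P1 in both fractions, and more so in the negative one, where the gap widened. In pHes1_ENCs the P4 value was 0.264 times (range 0.202 to 0.336) the P1 value, whereas in pHes1_EPCs it was 0.727 times (0.658 to 0.798). The log2 differences between the ages were -1.44 and -0.44. An annotated noncoding transcript on the opposite strand overlaps Yap1, and the library protocol in the labels describes no strand marking, so its reads could not be separated. Opposite-strand genes or pseudogenes also overlap Wwtr1, Tead1, Ctgf and Lats2.

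Wwtr1 encodes Taz, the paralog of Yap. It lies on the minus strand of chromosome 3, from 57259566 to 57379832, and has 7 exons. Its FPKM was 19.4 in P1 pHes1_EPC against 5.40 in P1 pHes1_ENC, and 23.9 in P4 pHes1_EPC against 5.196 in P4 pHes1_ENC. As for Yap1, both positive libraries were above both negative ones, with ratios of 3.60 (range 3.16 to 4.14) at P1, compared with 4.60 (4.03 to 5.30) at P4, or 1.67 and 2.01 on the log2 scale. Unlike Yap1, the level in pHes1_ENCs was nearly the same at both ages, and the intervals overlapped. In pHes1_EPCs the P4 value was 1.23 times (range 1.11 to 1.36) the P1 value on deposited FPKM, a log2 difference of 0.28 that was -0.04 after rescaling to the same total.

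The balance of the 2 coactivators differed between libraries. Yap1 was 1.10 times Wwtr1 in P1 pHes1_ENC, with a range of 0.925 to 1.30 that includes equal levels, and 1.58 times (1.44 to 1.74) in P1 pHes1_EPC. At P4 it was 0.301 times Wwtr1 (0.230 to 0.385) in pHes1_ENCs and 0.932 times (0.843 to 1.03) in pHes1_EPCs. Yap1 thus was the more abundant transcript in positive cells at P1, while in negative cells at P4 Wwtr1 made up 76.9% of the summed FPKM of the pair. Their sum was 50.03 in P1 pHes1_EPC against 11.3 in P1 pHes1_ENC, and 46.1 against 6.76 in the P4 fractions. The positive fraction thus held 4.41 times the sum of the negative one at P1 and 6.82 times at P4.

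**Figure D2:**
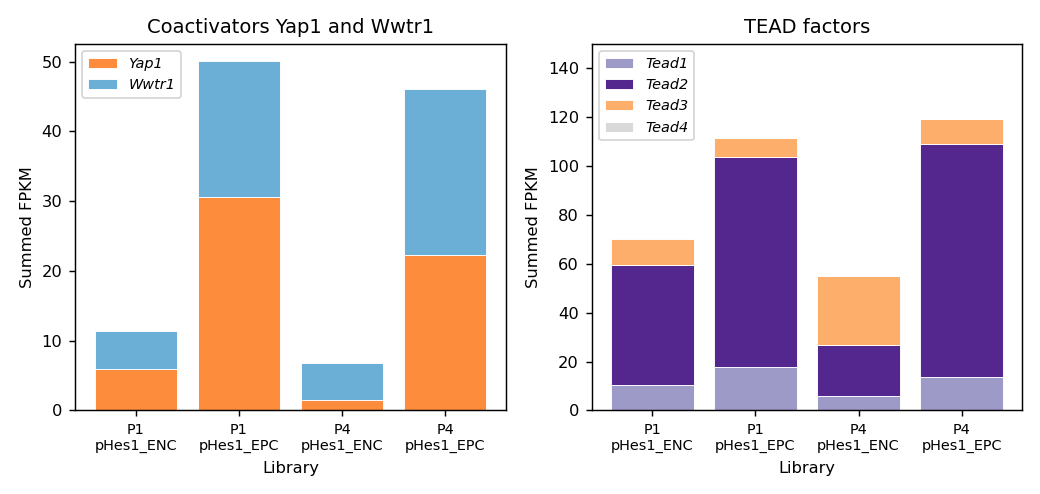
Summed FPKM of Yap1 and Wwtr1 (left) and of the 4 TEAD genes (right) in each library, as stacked bars with 1 library per bar and no error. The coactivator sum is 50.03 and 46.1 in the pHes1_EPC libraries against 11.3 and 6.76 in pHes1_ENC, and Tead3 takes 51.0% of the TEAD sum in P4 pHes1_ENC but 8.38% in P4 pHes1_EPC.

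The TEAD genes encode the transcription factors through which Yap and Taz reach DNA, and the 3 measured at an appreciable level behaved differently. Tead2 had the highest FPKM of the 10 genes in every library but P4 pHes1_ENC. Its FPKM was 86.1 in P1 pHes1_EPC against 48.9 in P1 pHes1_ENC, and 95.6 in P4 pHes1_EPC against 21.0 in P4 pHes1_ENC. The lowest value was thus that of P4 pHes1_ENC, where the P4 level was 0.429 times (range 0.379 to 0.498) the P1 level, and the positive fraction exceeded the negative one 1.76 times (1.595 to 1.92) at P1, compared with 4.55 times (3.96 to 5.06) at P4, or by 0.80 and 2.14 on the log2 scale. In 3 of its 4 libraries, all but P4 pHes1_ENC, the FPKM of Tead2 lay above the upper bound of its own interval, the only such cases among the 40 values of the 10 genes, so its ranges are less reliable. It is located on chromosome 7 (plus strand, 52471123 to 52488989).

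Tead1, on the plus strand of the same chromosome from 119822834 to 120050319, had a lower level and a smaller difference. Its FPKM was 17.9 in P1 pHes1_EPC against 10.5 in P1 pHes1_ENC, and 13.6 in P4 pHes1_EPC against 5.92 in P4 pHes1_ENC. The positive library was above the negative one at each age, by 1.70 times (range 1.57 to 1.87) at P1, compared with 2.30 times (2.07 to 2.58) at P4. The log2 difference at P4 was 1.08, close to the limit of 1, and it was 0.88 after rescaling to the same total, 0.90 after median-of-ratios scaling and 0.86 after quantile normalization. Both fractions had less Tead1 at P4 than at P1, with ratios of 0.563 in pHes1_ENCs and 0.763 in pHes1_EPCs.

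Tead3, on the minus strand of chromosome 17 from 28468618 to 28487750, ran the other way. Its FPKM was 7.56 in P1 pHes1_EPC against 10.9 in P1 pHes1_ENC, and 9.9997 in P4 pHes1_EPC against 28.2 in P4 pHes1_ENC. P4 pHes1_ENC stood apart as the highest library, at 2.82 times (range 2.43 to 3.30) the level of P4 pHes1_EPC and 2.59 times (2.24 to 3.01) that of P1 pHes1_ENC. On the log2 scale the fractions differed by -0.47 at P1, compared with -1.41 at P4. The summed FPKM of the 8 rod genes was also highest there, at 4084 against 774 in P4 pHes1_EPC, 702 in P1 pHes1_ENC and 43.4 in P1 pHes1_EPC, and the part of rods in the level of Tead3 was not tested. Tead4, which is not among the 10 genes, had an FPKM of at most 0.200 in any library.

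The makeup of the TEAD transcripts differed between libraries as well. Tead2 made up 77.1% and 80.1% of the summed TEAD FPKM in pHes1_EPCs of P1 and P4, and 69.5% and 37.9% in pHes1_ENCs. The share of Tead3 was 6.77% and 8.38% in pHes1_EPCs, and 15.5% and 51.0% in pHes1_ENCs. For Tead1 it lay between 10.7% and 16.0%. Tead2 was thus the main TEAD transcript in 3 libraries, and Tead3 in P4 pHes1_ENC, where Tead2 was 0.744 times Tead3 (range 0.601 to 0.803). The summed level was 1.58 times as high in pHes1_EPCs as in pHes1_ENCs at P1 and 2.16 times at P4, which is less than for the coactivators.

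Lats1 and Lats2 encode the kinases that inactivate Yap and Taz, and neither was more than 2-fold different between the fractions. Lats1, on the plus strand of chromosome 10 from 7401007 to 7436259, had an FPKM of 14.8 in P1 pHes1_EPC against 20.4 in P1 pHes1_ENC, and 14.4 in P4 pHes1_EPC against 24.6 in P4 pHes1_ENC. Both negative libraries were above both positive ones. The ratio of pHes1_ENCs to pHes1_EPCs was 1.38 (range 1.25 to 1.51) at P1, compared with 1.70 (1.54 to 1.86) at P4. The log2 differences were -0.44 and -0.73, and the latter was -1.04 after rescaling to the same total.

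Lats2, which is both a kinase of the pathway and a target of Yap, showed no such order. It lies on the minus strand of chromosome 14, from 58308499 to 58364960. Its FPKM was 4.61 in P1 pHes1_EPC against 4.54 in P1 pHes1_ENC, and 4.72 in P4 pHes1_EPC against 3.58 in P4 pHes1_ENC. At P1 the intervals overlapped, with a ratio of 1.02 (range 0.837 to 1.23), and at P4 they did not, with a ratio of 1.32 (1.07 to 1.63). The log2 difference was 0.02 at P1, or -0.06 after rescaling to the same total, and 0.32 at P4. Lats1 was the more abundant kinase transcript in all 4 libraries, at 3.06 to 6.88 times the level of Lats2.

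Amotl2, a member of the angiomotin family that binds Yap at cell junctions and is itself a Yap target, was among the highest of the 10 genes in every library. It lies on the plus strand of chromosome 9, from 102620134 to 102635747. Its FPKM was 27.0 in P1 pHes1_EPC against 45.7 in P1 pHes1_ENC, and 45.8 in P4 pHes1_EPC against 58.3 in P4 pHes1_ENC. It was thus lower in the positive fraction at each age, although Yap1 and Wwtr1 were higher there. The ratio of pHes1_ENCs to pHes1_EPCs was 1.69 (range 1.53 to 1.84) at P1, compared with 1.27 (1.18 to 1.37) at P4. The log2 values of positive minus negative were -0.74 and -0.34. In pHes1_EPCs its level at P4 was 1.69 times (1.54 to 1.84) that at P1.

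Cyr61 and Ctgf encode secreted matricellular proteins of the CCN family and are the targets most often used to read Yap activity. Cyr61 lies on the minus strand of chromosome 3, from 145309935 to 145312949, with 5 exons. Its FPKM was 3.86 in P1 pHes1_EPC against 0.518 in P1 pHes1_ENC, and 7.70 in P4 pHes1_EPC against 0.495 in P4 pHes1_ENC. Both positive libraries were above both negative ones, and the ratio was 7.46 (range 4.38 to 14.1) at P1, compared with 15.6 (9.09 to 28.5) at P4. These ratios exceed those of Yap1, but their ranges overlap, and those of Cyr61 are wide because its interval in pHes1_ENCs spans 36.8% (P1) and 41.2% (P4) of its midpoint on either side. The log2 differences were 1.68 and 2.54, and a pseudocount of 0.1 gave 2.68 and 3.71. In pHes1_EPCs the P4 level was 1.99 times (1.39 to 2.70) the P1 level, while Yap1 was lower at P4 than at P1 in the same libraries.

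Ctgf, on the plus strand of chromosome 10 from 24315248 to 24318488, was the lowest of the 10 genes in 3 of the libraries. Its FPKM was 1.47 in P1 pHes1_EPC against 0.529 in P1 pHes1_ENC, and 2.12 in P4 pHes1_EPC against 0.393 in P4 pHes1_ENC. The order of the libraries followed that of Cyr61 between the fractions, with ratios of 2.78 (range 1.59 to 5.19) at P1, compared with 5.39 (2.97 to 10.4) at P4. Its log2 differences were 0.69 and 1.16, and both calls depended on the scale. The P1 difference passed 1 with a pseudocount of 0.1 (1.32) and as a ratio with no pseudocount (1.48). It also did so after rescaling to the same total (1.04), a setting that lightens the pseudocount as well. The P4 difference was 0.96 after quantile normalization.

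The targets thus differed from each other. Amotl2 was 88.2 times the level of Cyr61 in P1 pHes1_ENC and 118 times in P4 pHes1_ENC, against 6.999 and 5.95 times in pHes1_EPCs. Cyr61 was 2.62 times (range 1.69 to 4.09) Ctgf in P1 pHes1_EPC and 3.63 times (2.49 to 5.01) in P4 pHes1_EPC. In both pHes1_ENC libraries the intervals of Cyr61 and Ctgf overlapped.

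**Figure D3:**
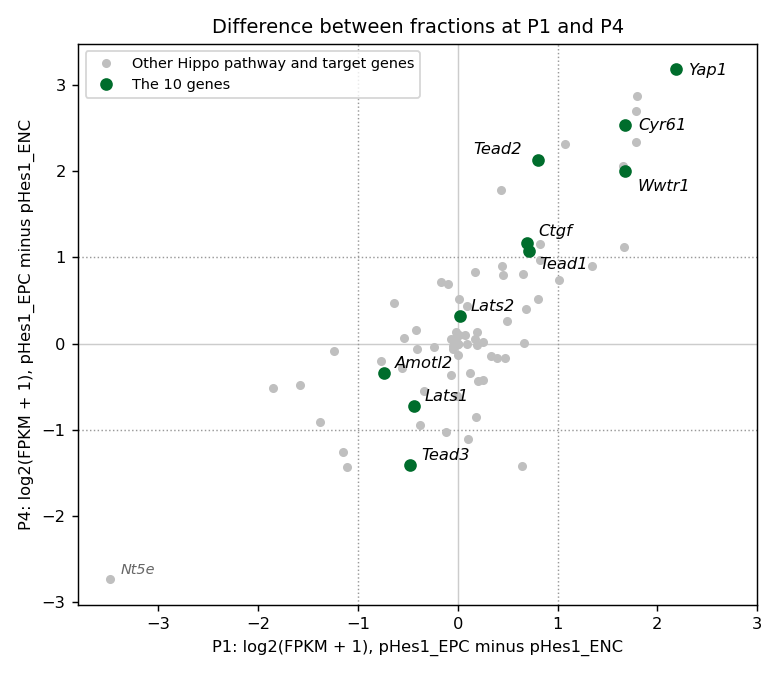
Difference in log2(FPKM + 1) between pHes1_EPCs and pHes1_ENCs at P1 (horizontal axis) and at P4 (vertical axis), for the 10 genes in green and 67 other Hippo pathway and target genes in grey, with dotted lines at -1 and 1. Yap1 lies farthest to the upper right at 2.19 and 3.18, and Tead3, Lats1 and Amotl2 lie on the lower left.

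Between the ages, differences past the limit of 1 were seen among the 10 genes in pHes1_ENCs alone. From P1 to P4 Yap1 and Tead2 were lower and Tead3 was higher there, 2 and 1 of the 10 genes against 5.94% and 2.77% of all genes. In pHes1_EPCs 0 of the 10 were past the limit in either direction, against 4.17% of all genes higher and 2.57% lower at P4. These splits also moved under the 3 scalings, of which that to the same total also lightens the pseudocount. In pHes1_EPCs they became 3.31% higher and 6.49% lower (same total), 2.81% and 3.56% (median of ratios) and 2.72% and 3.42% (quantile). In pHes1_ENCs they became 3.04% and 10% (same total), 2.86% and 5.9% (median of ratios) and 3.46% and 4.63% (quantile). The differences between the ages spanned -0.44 for Yap1 to 0.84 for Cyr61 in pHes1_EPCs. In pHes1_ENCs they spanned more, from -1.44 for Yap1 to 1.30 for Tead3. This did not hold gene by gene. Yap1, Tead1, Tead2, Tead3, Lats1 and Lats2 differed more between the ages in pHes1_ENCs, and Wwtr1, Cyr61, Ctgf and Amotl2 more in pHes1_EPCs. Whether the ages differ in their effect was not tested, since each group is 1 library.

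The order of levels also differed between libraries. In P1 pHes1_EPC it was, from high to low, Tead2, Yap1, Amotl2, Wwtr1, Tead1, Lats1, Tead3, Lats2, Cyr61 and Ctgf, and neighbours with overlapping intervals were Wwtr1 and Tead1, and Lats2 and Cyr61. In P4 pHes1_EPC it was Tead2, Amotl2, Wwtr1, Yap1, Lats1, Tead1, Tead3, Cyr61, Lats2 and Ctgf, with overlap of Wwtr1 with Yap1 and of Lats1 with Tead1. Yap1 thus moved from the second to the fourth place, and Cyr61 passed Lats2. In P1 pHes1_ENC the order was Tead2, Amotl2, Lats1, Tead3, Tead1, Yap1, Wwtr1, Lats2, Ctgf and Cyr61, where Tead2 and Amotl2, Tead3 and Tead1, Yap1 and Wwtr1, Wwtr1 and Lats2, and Ctgf and Cyr61 overlapped. In P4 pHes1_ENC it was Amotl2, Tead3, Lats1, Tead2, Tead1, Wwtr1, Lats2, Yap1, Cyr61 and Ctgf, with overlap of Tead1 with Wwtr1 and of Cyr61 with Ctgf. There Yap1 had the third lowest level of the 10 genes.

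Outside the 10 genes, 67 other genes of the pathway or of a published YAP and TAZ target signature were listed, and 8 were higher and 7 lower in the positive fraction of P1. At P4 the counts were 8 and 6. Their median differences were 0.09 and 0.01. Beside them stand 6.1% higher and 6.79% lower at P1, and 9.85% and 5.42% at P4, of all genes, and the shares of expressed genes given above. The 67 genes include silent ones, with 46 to 49 at an FPKM of at least 1 per library, so no result about them as a whole is read from the counts.

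**Figure D4:**
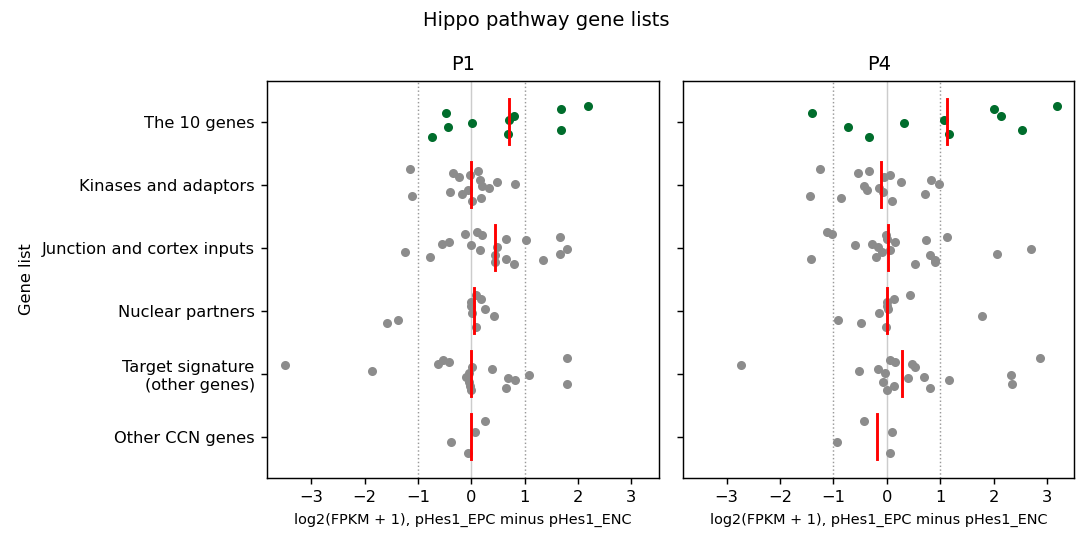
Difference in log2(FPKM + 1) between pHes1_EPCs and pHes1_ENCs at P1 (left) and P4 (right), 1 point per gene, for the 10 genes (green) and 5 lists of other pathway genes (grey), with red bars at the medians and dotted lines at -1 and 1. The medians of the 10 genes are 0.70 and 1.12, and those of the kinases and adaptors are -0.01 and -0.10.

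Among 16 upstream kinases and adaptors, 0 were higher and 2 were lower in pHes1_EPCs at each age. Of expressed genes in general 10.6% were higher and 11.8% lower at P1, and 17.4% and 9.56% at P4, so nothing particular to the list is read from these counts. The 2 lower genes were Map4k3 and Taok3, kinases that can activate the pathway above or beside Stk3 and Stk4. They were at -1.11 and -1.15 in P1 and at -1.44 and -1.25 in P4 on the log2 scale. Sav1, the scaffold of Stk3 and Stk4, was at 0.82 and 0.98, although its ratio of FPKM without a pseudocount was 2.03 at P4. Map4k2 was at 0.18 and -0.86, and Stk38, a relative of the Lats kinases, at 0.17 and 0.83.

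Of 20 genes for junctional and cortical inputs, 5 were higher and 1 lower at P1, and 3 higher and 3 lower at P4. The shares of expressed genes were 10.6% higher and 11.8% lower at P1, and 17.4% and 9.56% at P4. Jub, which encodes the Lats inhibitor Ajuba, had an FPKM of 2.78 and 12.1 in pHes1_ENCs and pHes1_EPCs at P1 and of 0.852 and 11.1 at P4, with log2 differences of 1.79 and 2.70. Fat1, an atypical cadherin, was at 1.66 and 2.06. The polarity genes Crb1 and Crb2 differed from each other at P4. Crb1 was at 1.35 and 0.90, and Crb2 at 0.64 and -1.42.

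Of 10 nuclear partners, 0 were higher and 2 lower at P1, and 1 higher and 0 lower at P4. Over all genes the shares were 6.1% higher and 6.79% lower at P1, and 9.85% and 5.42% at P4. Smad3, a mediator of TGF-beta signaling that can bind Taz, was at 0.43 and 1.78, and Smad2 at -1.38 and -0.91. Vgll4, which competes with Yap for the Tead proteins, was at 0.09 and 0.43, with an FPKM of 11.9 to 17.2 in the 4 libraries.

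The published target signature holds 22 genes, including Amotl2, Lats2, Ctgf and Cyr61. Of the other 18, 3 were higher and 2 lower in pHes1_EPCs at P1, and 4 higher and 1 lower at P4, with medians of -0.01 and 0.28. The higher genes included Tgfb2, a TGF-beta ligand, at 1.79 and 2.87, the receptor tyrosine kinase gene Axl at 1.78 and 2.35, and Fjx1 at 1.08 and 2.32. Nt5e went furthest the other way, at -3.49 and -2.74, with an FPKM of 25.02 in P1 pHes1_ENC and 1.32 in P1 pHes1_EPC, and of 116 and 16.5 in the same fractions of P4. It encodes Cd73, which in the retina marks rod precursors. The other gene lower at P1 was Gadd45a, at -1.85 and -0.51, which was named after its values were seen. Its FPKM was 53.8 in P1 pHes1_ENC and 14.2 in P1 pHes1_EPC. Of expressed genes in general 10.6% were higher and 11.8% lower at P1, and 17.4% and 9.56% at P4, so nothing particular to the signature is read from its counts. The 4 other CCN genes (Nov, Wisp1, Wisp2 and Wisp3) had an FPKM of at most 1.57, and for 0 of them did the difference in log2(FPKM + 1) pass the limit. Wisp1, named after its values were seen, was at -0.38 and -0.94 on this scale, which understates low genes, with an FPKM of 0.0475 in P1 pHes1_EPC against 0.362 in P1 pHes1_ENC, and 0.176 in P4 pHes1_EPC against 1.26 in P4 pHes1_ENC.

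Over the 4 libraries, the patterns closest to that of Yap1 were those of Nr2e1, Dtx4, Gas1, Id1 and Gpc3, among 8403 genes that reached an FPKM of 10. Likeness is the Euclidean distance between log2(FPKM + 1) values after each gene was centred on its own mean, and these distances were 0.0939 to 0.207. Nr2e1, an orphan nuclear receptor of neural progenitors, had an FPKM of 74.6 in P1 pHes1_EPC against 14.7 in P1 pHes1_ENC, and 53.1 in P4 pHes1_EPC against 4.62 in P4 pHes1_ENC. For Cyr61 the closest were Ctso, Cdon, A930038C07Rik, Dhrs7 and Cyba, at 0.120 to 0.246. With 4 points this likeness is a description only.

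Cyr61 and Ctgf are also expressed by vessel cells and are induced early by many stimuli, so marker lists of other cells were examined beside them. The endothelial list of 10 genes summed to an FPKM of 64.0 and 213 in the negative and positive fractions at P1, whereas the P4 sums were 15.6 and 195. Values below keep this order. Nearly all of the pHes1_EPC sums came from the receptor gene Kdr, which retinal progenitors also express, and without Kdr the sums were 17.1, 4.64, 3.63 and 6.21. Most of the remainder was Cldn5, at 16.3, 3.49, 2.59 and 4.06. Of the list, Kdr was higher in pHes1_EPCs at both ages, Flt1 at P4, and Cldn5 was lower at P1. Flt1 had an FPKM of 0.0658, 0.715, 0.110 and 1.41, so that it was higher in the fraction with more Cyr61 and Ctgf. The other 7 genes had an FPKM of at most 0.547 in any library, among them the defining genes Pecam1 (at most 0.142) and Cdh5 (at most 0.0705). Flt1, Pecam1 and Cdh5 were named after their values were seen, and the part of endothelial cells in the levels of Cyr61 and Ctgf was not tested.

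The pericyte and smooth muscle list, led by Acta2 and Pdgfrb, summed to 5.28, 5.85, 4.78 and 6.69 in the same order. Only Pdgfrb among them passed the limit, at P4, with an FPKM of 0.670, 1.68, 0.0829 and 1.52, and its part in the levels of Cyr61 and Ctgf was not tested. Among 10 immediate early genes 0 were higher and 2 lower at P1, and 2 higher and 3 lower at P4. The shares of expressed genes were 10.6% higher and 11.8% lower at P1, and 17.4% and 9.56% at P4. Jun was at 41.6, 78.3, 86.5 and 89.7 and Ier3 at 13.7, 2.71, 67.7 and 14.4. The 2 higher at P4 were Fos, at 3.71, 8.15, 7.02 and 29.3, and Egr1, at 7.11, 7.56, 12.3 and 31.9. Both were highest in P4 pHes1_EPC, the library with the highest Cyr61 and Ctgf. The 3 lower at P4 were Ier3, Junb and Nr4a1. Fos, Egr1, Junb and Nr4a1 were named after their values were seen. The median difference of the immediate early list was 0.15 at P1 and 0.06 at P4, and its part in the levels of Cyr61 and Ctgf was not tested.

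Of the remaining lists, that of 6 astrocyte genes, led by Aldoc and Pdgfra, summed to 59.2 in P4 pHes1_EPC and to 7.32 to 28.0 in the other libraries. The list of 8 pigment epithelium genes summed to 25.8 in P4 pHes1_EPC, of which Dct made up 15.0 and Tyrp1 5.64, and to 2.03 to 6.60 elsewhere, and Rpe65 was at most 0.422. Both sums were highest in the library with the highest Cyr61, Ctgf and Wwtr1, and their part in these levels was not tested. The 6 microglia genes, led by Csf1r and Cx3cr1, summed to 0.647 to 4.61, and the 6 lens genes, led by Cryba1 and Mip, to 0.334 to 1.15. The 5 red cell genes were carried by Hba-a1 and Hbb-b1 and summed to 108 and 322 in the pHes1_ENC libraries against 0.353 and 3.95 in pHes1_EPCs.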

How the data were processed

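RNA of 4 sorted cell fractions of mouse retina was sequenced, 1 library per group. The authors made random-primed cDNA libraries and single-end reads of 36 bases, aligned them to NCBI37/mm9 with TopHat2 (2.0.8b), keeping reads with up to 50 positions, and deposited FPKM per gene with 95% intervals from Cufflinks (2.1.1). The submitters' processing notes also name bcl2fastq (1.8.4). The protocol describes no strand marking, and read counts per library were not used here, so depth is known only through the Cufflinks intervals, which cover counting error.

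Each file held 23021 gene lines. Lines of small RNAs (787) were left out, and the highest line of a symbol was kept, which left 21828 genes. Each of the 10 genes had 1 line and status OK. Differences are of log2(FPKM + 1), called beyond 1 or -1, and this scale understates changes of low genes. With 1 library per group there was no test. Alternatives were pseudocounts, a filter at FPKM 1, 3 scalings, the intervals in place of the 2-fold limit, and the handling of lines. The scaling to the same total raised the FPKM values and kept the pseudocount of 1, which then weighs less. Other genes were named by a rule: the members, up to 5 genes per pathway list with the largest difference at an FPKM of at least 5, the 2 highest genes per marker list, and the 5 nearest patterns to Yap1 and Cyr61. A gene that this rule names is not reported here. The members and lists were chosen with earlier results of these data known. Promoter windows are from RefSeq (GRCm38.p6) and gene models from GENCODE on NCBI37. Calculations used Python 3.11.15, numpy 2.4.6, pandas 2.3.3 and matplotlib 3.10.9, and were tested on simulated data.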

Additional observations from a re-analysis of the deposited data

Results flagged for a closer look

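From P1 to P4, 6 of the 10 genes had a difference in log2(FPKM + 1) of opposite sign in pHes1_EPCs and pHes1_ENCs. Since each group is 1 library, the difference between the fractions was not tested. The cause was not tested either.

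Tead2 was the only one of the 6 with Cufflinks intervals apart in both fractions, at 0.15 in pHes1_EPCs and -1.18 in pHes1_ENCs, a gap of 1.33. In both pHes1_EPC libraries its FPKM lay above its own interval. The P1 FPKM of 86.1 even fell inside the P4 interval of 84.4 to 91.2, so the intervals do not separate the ages there. The small difference of Tead2 in pHes1_EPCs was -0.18 after rescaling to the same total, -0.03 after median-of-ratios scaling and -0.21 after quantile normalization. Cyr61 was at 0.84 and -0.02, a gap of 0.86. For Ctgf the gap was 0.47 (0.33 and -0.13), with intervals that overlapped between the ages in both fractions. Wwtr1 had a gap of 0.33 (0.28 and -0.05), and its value in pHes1_EPCs was -0.04 after rescaling to the same total. Lats1 had a gap of -0.29 (-0.03 and 0.26) and Lats2 of 0.30 (0.03 and -0.28), where the intervals overlapped between the ages in pHes1_EPCs. For Lats2 the sign in pHes1_EPCs turned under all 3 scalings.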

How the results depend on the processing

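No paired analysis was possible because each group has 1 library, which leaves no pairs to compare. The fractions of an age come from the sort of retinas of that age, and whether from the same animals is not stated. With 1 library per group, none was left out.

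Of 358 differences of the 10 genes recomputed under the alternatives, 299 stayed near the reported value, 59 moved, and 0 of the called ones turned sign. Each of the 10 genes had 1 line and status OK. Summing lines, keeping small RNAs, requiring status OK and the filter at FPKM 1 therefore could not change a value. A part of the 299 was thus fixed in advance, and that count is no measure of stability. In 8 cases a call changed, for Ctgf, Tead1 and Lats1. After rescaling to the same total, 2 genes instead of 1 were lower in pHes1_EPCs at P4, by the addition of Lats1. When intervals apart replaced the 2-fold limit, 6 genes were higher and 3 lower in pHes1_EPCs at P1, and 7 were higher, with Lats2 added, and 3 lower at P4. By that rule 5 were higher and 2 lower at P4 than at P1 in pHes1_EPCs, and 3 higher and 4 lower in pHes1_ENCs. Over all genes that rule called 22.1% higher and 21.8% lower at P1, 28.3% and 18.6% at P4, 27.0% and 14.8% between the ages in pHes1_EPCs, and 16.9% and 21.1% in pHes1_ENCs. Without a pseudocount 15.5% of genes were higher and 18.3% lower at P1, and 22.6% and 15.5% at P4.

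Scaling by equal totals, by the median of ratios and by quantiles moved the median difference between the fractions at P4, over genes that reached an FPKM of 1, by -0.28, -0.18 and -0.18, and the median between the ages in pHes1_EPCs by -0.32, -0.16 and -0.14. Under quantile normalization the differences between the ages in pHes1_ENCs turned sign for Wwtr1 (0.16), Cyr61 (0.22), Ctgf (0.09) and Lats2 (0.01). Across the alternatives the difference between the fractions at P4 was 2.82 to 3.83 for Yap1, 2.33 to 3.96 for Cyr61 and 1.85 to 2.19 for Tead2. Low levels limit Cyr61 and Ctgf most.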
